A study of Mus musculus with 4 samples.

Results

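Natural killer (NK) cells and cytotoxic T cells decide whether to kill through receptors of the killer lectin-like family, most of which are encoded together in the natural killer gene complex on mouse chromosome 6. Levels of 10 of these genes were followed in immune cells of B16-F10 tumours: Klrd1, Klrc1, Klrk1, Klre1, Klrb1c, Klrg1, the Ly49 genes Klra4, Klra7 and Klra8, and Ncr1, a natural cytotoxicity receptor of the immunoglobulin family. The 10 genes were chosen by name from the 27998 genes of the matrix, of which 19171 had a molecule in the cells kept, and all 10 were found. CD94, the product of Klrd1, pairs with NKG2A (Klrc1) to an inhibitory receptor or with NKG2C (Klrc2) to an activating one, and both pairs read Qa-1, the product of H2-T23. NKG2D (Klrk1) is an activating receptor for stress ligands of the RAE-1, H60 and MULT1 families and signals through DAP10 (Hcst) and DAP12 (Tyrobp). In C57BL/6 mice Ly49D (Klra4) and Ly49H (Klra8) activate and Ly49G (Klra7) inhibits, NK1.1 (Klrb1c) and NKp46 (Ncr1) activate, KLRG1 is an inhibitory receptor for cadherins, and Klre1 encodes a receptor chain that pairs with KLRI1 or KLRI2.

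B16-F10 is a melanoma line of C57BL/6 origin. Libraries S1 and S2 came from tumours of Adar1-null B16-F10 cells and libraries S3 and S4 from control B16-F10 tumours, all grown in C57BL/6 mice from equal numbers of cells given in matrigel and taken on day 14, so that the deletion was in the implanted tumour cells and the receptors were measured in cells of the host. The labels give no age or sex of the mice, no clone or way of deletion for the null line, and no statement that a group's libraries are separate mice. The p-values therefore measure the spread between these libraries, which may be technical. Cells of the digested tumours were put through a density gradient and selected for CD45 with magnetic beads, and transcripts were counted as unique molecular identifiers (UMIs) with the 10x 3′ v2 droplet kit.

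Quality filters kept 1939 and 1936 cells in S1 and S2, against 1945 and 2749 in S3 and S4, with library medians between 7618 and 8788 UMIs per cell. Pairs of libraries shared 3 to 10 barcodes. NK, CD8 T and dendritic cells were gated by marker genes that exclude the 10 receptors and their adaptors. The NK gate held 10 and 32 cells in S1 and S2 and 34 and 11 cells in S3 and S4, the CD8 T gate 270 and 314 against 243 and 229 cells, and the dendritic gate 86 and 70 against 100 and 92 cells. The NK gate required Nkg7, absence of Cd8a and Cd8b1, and at least 3 UMIs summed over Gzma, Prf1, Eomes, Txk, Il2rb, Tbx21 and Xcl1. Of the gated NK cells 70.1% had Gzma, 88.5% Il2rb and 44.8% Eomes, against 27.6% with Prf1 and 34.5% with Tbx21. These shares are of genes that the gate used and are no check of it. Levels are in counts-per-million (CPM), a gene's UMIs scaled to all UMIs of its gate and library. Markers of another lineage moved with genotype in the NK gate: the 12 dendritic markers summed to 2005 and 601 CPM in S1 and S2, against 338 and 147 CPM in S3 and S4, most of it Cd74, H2-Aa and H2-Ab1, with 4 of the 12 at 0 throughout, Clec9a and Cd209a among them. Adar itself stood at 9.14 and 13.1 CPM in gated melanoma cells of S1 and S2, against 11.3 and 12.3 CPM in S3 and S4, and since 3′ tags can lie outside a deleted part this does not check the labels.

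In the GENCODE annotation of GRCm38, 9 of the 10 genes lay on chromosome 6 and 8 of these within 1.45 Mb, from Klrb1c (chr6:128778485-128789215) through Klre1, Klrd1, Klrk1 and Klrc1 to Klra7 (chr6:130218605-130233322). Klrg1 lay apart at chr6:122270596-122282882 and Ncr1 on chromosome 7 (chr7:4337724-4345164). RefSeq promoters (GRCm38.p6) were at hand for 8 of the genes, with Klrd1 and Klrg1 named only. The 250 bases upstream of the first listed start site are shown for the 3 genes that NK and CD8 T cells shared (Klrk1, Klrc1, Klre1), for Ncr1 and Klrb1c, which were found in NK cells, and for the Ly49 pair Klra4 and Klra8, since these levels are what the results turn on. For Klre1, Klrb1c and Klra7 (chr6:130231688-130231937, not shown) the RefSeq start site used lies inside the gene as annotated by GENCODE. Their 250 bases are therefore within that annotated gene, which for Klre1 is chr6:129577905-129585827. Capitals mark the Runx core TGTGGT and the T-box core GTGTGA on either strand, and no marked stretches overlapped.
Klrk1, chr6:129623865-129624114, minus strand: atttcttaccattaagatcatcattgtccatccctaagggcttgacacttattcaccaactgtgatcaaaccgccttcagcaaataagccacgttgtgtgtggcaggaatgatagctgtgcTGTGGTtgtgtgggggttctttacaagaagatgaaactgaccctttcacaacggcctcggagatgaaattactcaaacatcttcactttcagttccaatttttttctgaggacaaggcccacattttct
Klrc1, chr6:129678974-129679223, minus strand: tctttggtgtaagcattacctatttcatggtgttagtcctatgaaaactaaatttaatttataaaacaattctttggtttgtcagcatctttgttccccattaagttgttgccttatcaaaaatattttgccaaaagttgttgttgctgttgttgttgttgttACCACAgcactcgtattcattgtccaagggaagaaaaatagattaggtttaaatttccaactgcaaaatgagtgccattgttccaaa
Klre1, chr6:129577963-129578212, plus strand: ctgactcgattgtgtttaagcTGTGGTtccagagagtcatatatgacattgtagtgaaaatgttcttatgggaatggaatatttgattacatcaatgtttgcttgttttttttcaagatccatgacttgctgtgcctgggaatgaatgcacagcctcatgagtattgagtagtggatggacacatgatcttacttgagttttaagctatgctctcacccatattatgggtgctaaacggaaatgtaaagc
Ncr1, chr7:4337465-4337714, plus strand: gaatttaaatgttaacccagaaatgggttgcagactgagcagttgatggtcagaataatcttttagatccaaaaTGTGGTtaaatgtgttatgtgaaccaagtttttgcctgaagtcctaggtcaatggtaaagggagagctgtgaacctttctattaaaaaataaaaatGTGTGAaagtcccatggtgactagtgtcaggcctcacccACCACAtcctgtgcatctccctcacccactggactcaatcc
Klrb1c, chr6:128788642-128788891, minus strand: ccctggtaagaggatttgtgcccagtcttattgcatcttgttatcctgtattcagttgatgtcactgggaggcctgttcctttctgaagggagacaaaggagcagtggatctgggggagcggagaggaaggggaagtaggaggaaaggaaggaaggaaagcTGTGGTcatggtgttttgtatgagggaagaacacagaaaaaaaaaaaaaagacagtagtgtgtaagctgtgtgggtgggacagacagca
Klra4, chr6:130067272-130067521, minus strand: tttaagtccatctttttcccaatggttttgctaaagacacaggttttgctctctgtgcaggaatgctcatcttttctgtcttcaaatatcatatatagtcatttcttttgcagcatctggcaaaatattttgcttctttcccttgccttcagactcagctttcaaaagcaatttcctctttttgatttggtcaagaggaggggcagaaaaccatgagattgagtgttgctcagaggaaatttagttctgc
Klra8, chr6:130129899-130130148, minus strand: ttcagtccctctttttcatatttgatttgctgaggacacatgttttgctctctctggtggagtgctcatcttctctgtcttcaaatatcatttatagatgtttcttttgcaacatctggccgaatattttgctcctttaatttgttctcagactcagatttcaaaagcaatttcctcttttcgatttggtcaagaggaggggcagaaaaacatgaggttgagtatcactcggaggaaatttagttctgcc
The Runx core was present in the 5 promoters of Klrk1, Klrc1, Klre1, Klrb1c and Ncr1, with 2 matches in Ncr1, and absent from these letters in Klra4, Klra7 and Klra8, while 14.0% of all 32851 promoters held it in the same 250 bases. The T-box core was present in Ncr1 alone among the 8, against 12.3% of all promoters. The upstream sequences of Klra4 and Klra8 were 84.5% identical. Among transcripts, the last 300 bases of Klra8 were 55.9% identical to those of Klra4 and 58.4% to those of Klra7, but 85.3% to those of Klra6, and those of Klra4 were 83.2% identical to those of Klra1. How reads shared by such copies were assigned is not given in the sources used here, so values of the Ly49 genes are uncertain to that extent.

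**Figure D1:**
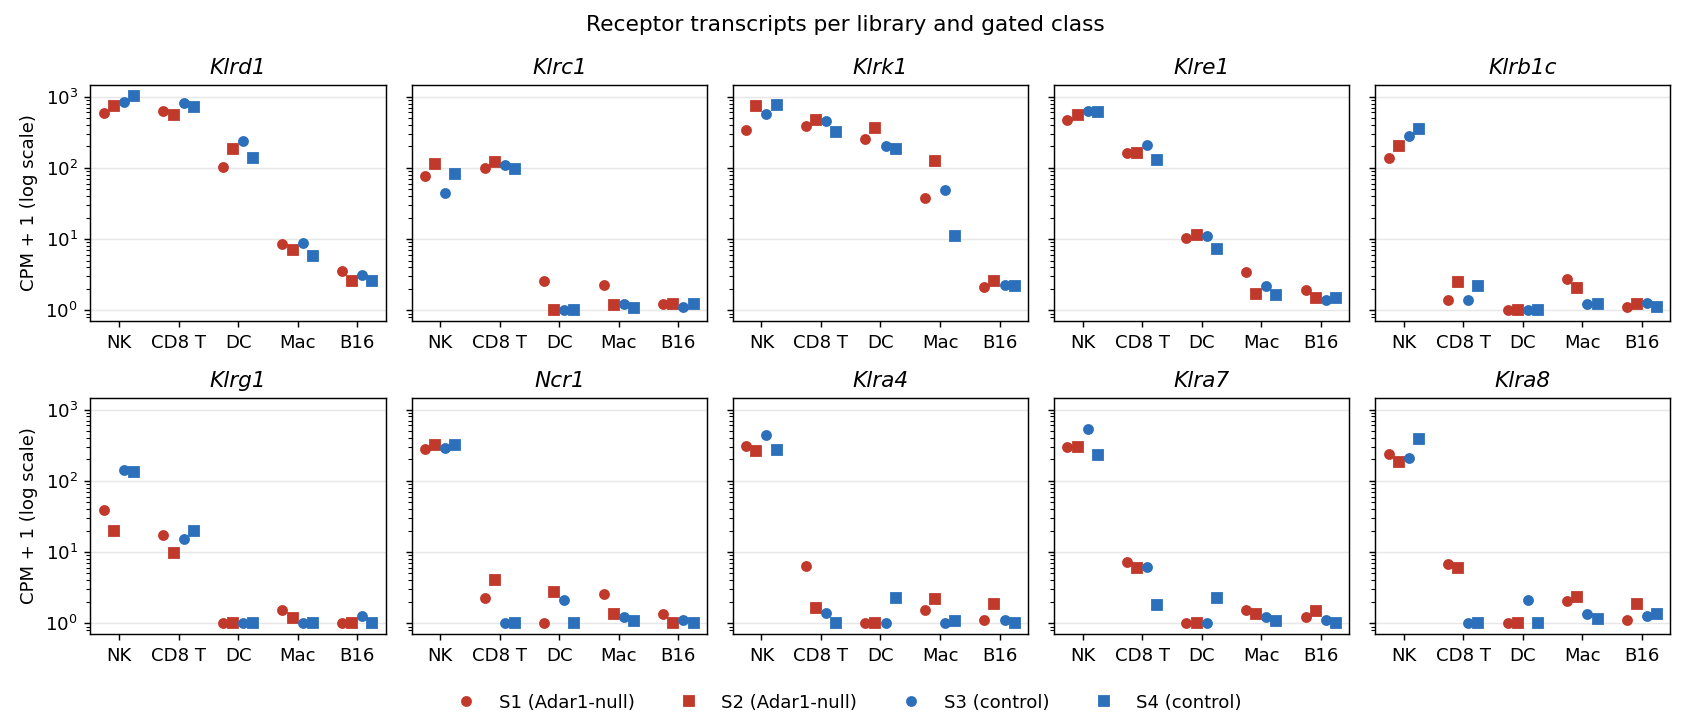
Level of each of the 10 receptor genes in CPM + 1 (log axis) per library in gated NK cells, CD8 T cells, dendritic cells (DC), macrophages (Mac) and melanoma cells (B16). Each point is 1 library, red for Adar1-null and blue for control. Klrb1c, Ncr1 and the 3 Ly49 genes stood at 137 CPM or more in NK cells and at 6.18 CPM or less in the other classes shown, while Klrd1 and Klrk1 were also high in CD8 T and dendritic cells.

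Between NK and CD8 T cells, the receptors fell into a group that both shared and a group found mainly in NK cells. In the comparison of NK over CD8 T cells within libraries, 7 of the 10 genes were higher in NK cells and none lower (quasi-likelihood test of edgeR with the library as a block, Benjamini-Hochberg adjusted p under 0.05), where 6.52% of the 6563 genes tested were called, 3.49% higher and 3.03% lower. The median log2 change of the 10 was 4.38, against -0.06 over all genes tested. Klrd1, Klrc1 and Klrk1 were the 3 receptors with no call. Ncr1, Klrb1c, Klra4, Klra7 and Klra8 had passed the filter on low counts only through NK cells, where they were high. Their p-values are therefore no support for a difference, and their levels are given as description. The count of 7 and the median of 4.38 include these genes.

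Ncr1 stood at 274 and 317 CPM in NK cells of S1 and S2, against 291 and 321 CPM in those of S3 and S4. In CD8 T cells it stood at 1.24 and 3.07 CPM in S1 and S2, against 0 in S3 and S4. The lowest NK value was far above the highest CD8 T value, with a log2 change of 7.85 ± 0.39 (SE, adjusted p = 3.74e-12 by edgeR). Klrb1c averaged 242 ± 92.9 CPM in NK cells (SD, n = 4 libraries) and had 10 UMIs in all CD8 T cells together, a log2 change of 7.84 ± 0.35 (adjusted p = 1.52e-15 by edgeR). Its protein NK1.1 is the antigen by which NK cells are commonly stained in C57BL/6 mice.

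Klra7, the inhibitory Ly49G, had 237 UMIs in 87 NK cells and 46 in 1056 CD8 T cells, a log2 change of 6.25 ± 0.28 (adjusted p = 3.46e-16 by edgeR). Klra4 had 211 UMIs in NK cells and 16 in CD8 T cells, a log2 change of 7.67 ± 0.49 (adjusted p = 6.33e-07). Klra8 had 139 UMIs in NK cells and 30 in CD8 T cells, a log2 change of 6.41 ± 0.68 (adjusted p = 0.000896), and this call was lost without S3 (adjusted p = 0.0929). Thus all 3 Ly49 genes were higher in NK cells, with a small remainder in CD8 T cells that for Klra8 came from 4 cells.

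Klre1 was present in both lymphocyte types at unequal levels. It stood at 473 and 558 CPM in NK cells of S1 and S2, against 626 and 616 CPM in those of S3 and S4. CD8 T cells had 160 and 163 CPM in S1 and S2, against 208 and 128 CPM in S3 and S4. The NK values lay above the CD8 T values in every library, with a log2 change of 1.77 ± 0.15 (adjusted p = 3.37e-10 by edgeR). Klrg1 averaged 82.9 ± 63.8 CPM in NK cells and 14.5 ± 4.37 CPM in CD8 T cells (SD, n = 4 libraries), a log2 change of 2.51 ± 0.38 (adjusted p = 0.000141 by edgeR). In the stricter gate Klrg1 did not pass the filter on low counts, and NK over CD8 T cells was not tested for it. T cells with at least 2 UMIs over Cd4, Foxp3, Ikzf2 and Tnfrsf4 and few of Cd8a and Cd8b1 are named CD4 T cells here. Of these, 48.4% had Cd4 itself and 41.8% Foxp3. They were gated but not tested, and had 86.2 and 41.4 CPM of Klrg1 in S1 and S2, against 142 and 160 CPM in S3 and S4.

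Klrd1, Klrc1 and Klrk1 were present in both lymphocyte types, and no difference between the types was called. Klrd1 stood at 598 and 729 CPM in NK cells of S1 and S2, against 846 and 1031 CPM in those of S3 and S4. CD8 T cells had 628 and 552 CPM in S1 and S2, against 810 and 715 CPM in S3 and S4. The values of the cell types overlapped, with a log2 change of 0.20 ± 0.15 (adjusted p = 0.508 by edgeR). Klrc1 averaged 78.0 ± 28.8 CPM in NK cells and 105.9 ± 11.5 CPM in CD8 T cells (SD, n = 4 libraries), with a log2 change of -0.52 ± 0.25 (adjusted p = 0.255). Klrk1 averaged 597 ± 191 CPM in NK cells and 411 ± 68.5 CPM in CD8 T cells, with a log2 change of 0.52 ± 0.19 (adjusted p = 0.127), and without S1 it was called higher in NK cells (adjusted p = 0.00562). In S1, with 10 NK cells, Klrk1 stood at 336 CPM, the lowest of the 4 NK values.

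At a common depth of 3900 UMIs per cell, reached by every gated cell, the same division showed in single cells. Klrd1 was seen in 87.4% of NK cells and 79.0% of CD8 T cells, and Klrk1 in 85.1% and 73.6%. Klrc1 was seen in 26.4% of NK cells and 32.6% of CD8 T cells. Ncr1 was seen in 60.9% of NK cells, Klrb1c in 58.6% and Klra7 in 48.3%, against 0.379%, 0.474% and 1.52% of CD8 T cells. Melanoma cells, which should lack these receptors, showed them in 0% to 0.814% of cells at that depth, and Ncr1 in 0%, Klrb1c in 0.203% and Klra4, Klra7 and Klra8 in 0.102% each. The CD8 T shares of Klra4 (0.474%) and Klra8 (0.284%) were likewise small, but single CD8 T cells held up to 7 UMIs of Klra4, 16 of Klra8 and 5 of Ncr1. Without thinning, where CD8 T cells had a median of 8886.5 UMIs and NK cells 5937, Klrd1 was seen in 92.0% of NK cells and 92.2% of CD8 T cells.

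**Figure D2:**
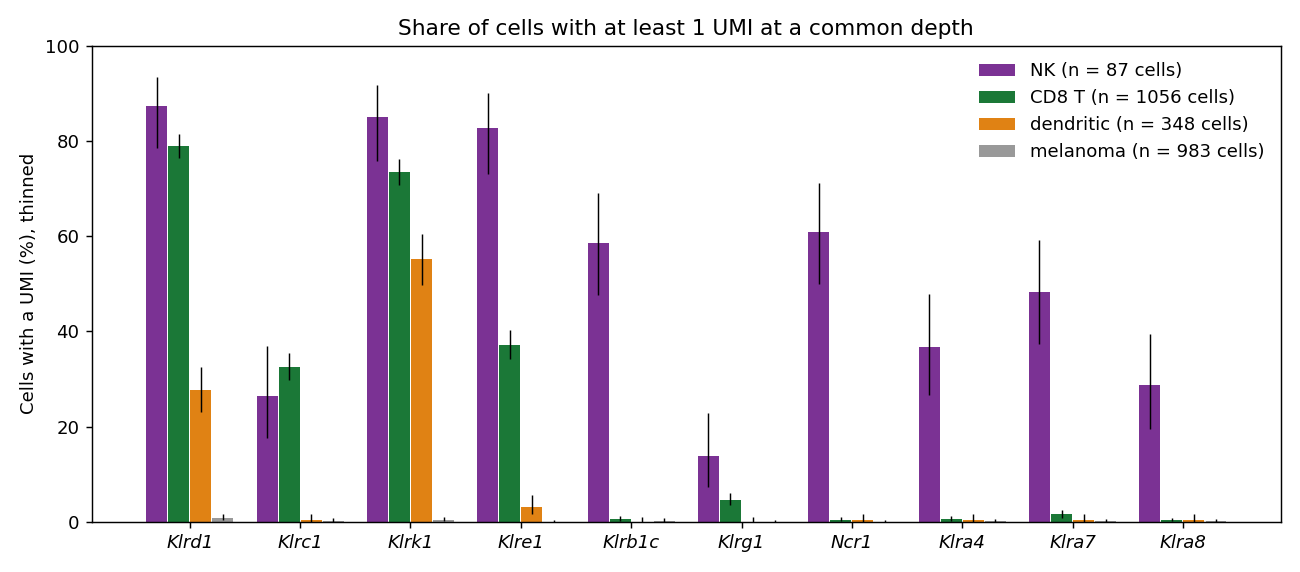
Share of cells with at least 1 UMI of each receptor gene after thinning every cell to 3900 UMIs, in percent, for gated NK, CD8 T, dendritic and melanoma cells. Bars are all 4 libraries together and lines are exact 95% binomial intervals of counting error. Klrd1 and Klrk1 were seen in most NK and CD8 T cells. Ncr1, Klrb1c and the Ly49 genes were seen in 28.7% to 60.9% of NK cells and hardly in the other classes shown.

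NK cells carried a median of 5 of the 10 receptor transcripts at that depth and CD8 T cells a median of 2. No NK cell showed fewer than 2, and 1 NK cell showed all 10. Ly49 genes were spread unevenly over NK cells: 34 of 87 showed none of Klra4, Klra7 and Klra8, 22 showed 1 of them, 16 showed 2 and 15 showed all 3. Of 25 cells with Klra8, 76.0% had Klra7 and 72.0% had Klra4, where 48.3% and 36.8% of all NK cells did. Klra4 was seen in 5 of the 23 NK cells with Klrc1 (21.7%). These are counts over cells of 4 libraries, given as a description with no test, and the Ly49 genes share sequence as stated above.

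Klrd1 was seen in most cells that had its partner chain, and also in most cells of either class. Of the 23 NK cells with Klrc1 at the common depth, 22 (95.7%) had Klrd1, where 87.4% of all NK cells did. Of the 344 CD8 T cells with Klrc1, 288 (83.7%) had Klrd1, where 79.0% of all CD8 T cells did. In turn 28.9% of NK cells with Klrd1 and 34.5% of CD8 T cells with Klrd1 had Klrc1, where 26.4% and 32.6% of all cells did. Klrc2, the activating partner, had 34 UMIs in all NK cells and 279 in all CD8 T cells, with a log2 change of 0.997 ± 0.32 for NK over CD8 T cells (adjusted p = 0.0575 by edgeR).

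Against dendritic cells, all 10 receptor genes were higher in NK cells, where 31.2% of 6563 genes were called, 12.8% higher and 18.4% lower. In CD8 T cells 6 were higher than in dendritic cells and none lower, where 53.7% were called, 25.7% higher and 27.9% lower. The 6 were Klrd1, Klrc1, Klrk1, Klre1, Klrg1 and Klra7, of which Klra7 had 1 UMI in dendritic cells and lost its call without S3 (adjusted p = 0.0585 by edgeR). Dendritic cells had no UMI of Klrb1c or Klrg1, so that NK cells were at least 237-fold higher for Klrb1c and at least 83.1-fold higher for Klrg1, taking 3 counts over all dendritic cells as the limit that a count of 0 allows (1.03 CPM). Klrc1, Klra4, Klra7 and Klra8 had 1 UMI each there and Ncr1 had 2, in shares of cells no higher than 0.575%. Where these UMIs came from was not tested. These genes, Klrb1c and Klrg1 had passed the filter on low counts only through lymphocytes, where they were high. Their p-values against dendritic cells, and the numbers called that include them, are therefore no support for a difference. For Klrc1 the ratio of NK over dendritic cells was 221, with a counting interval of 37.8 to 8911.

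Klrk1 and Klrd1 were present in dendritic cells at levels well above those of the other receptors. Klrk1 stood at 252 and 359 CPM in dendritic cells of S1 and S2, against 202 and 184 CPM in those of S3 and S4. It was lower than in CD8 T cells by a modest margin, with a log2 change of 0.58 ± 0.18 for CD8 T over dendritic cells (adjusted p = 0.0115 by edgeR), and this call was lost in DESeq2 (adjusted p = 0.0591) and without S3 (adjusted p = 0.0858). NK cells were higher than dendritic cells with a log2 change of 1.10 ± 0.20 (adjusted p = 0.000300). At the common depth 55.2% of dendritic cells showed Klrk1, against 0.305% of melanoma cells. Among the NK, CD8 T, dendritic, CD4 T, macrophage and melanoma gates, Klrk1 was highest in NK and CD8 T cells, between which no difference was called. Then came dendritic cells (249 ± 78.5 CPM), CD4 T cells (108.2 ± 38.7 CPM), macrophages (54.4 ± 48.1 CPM) and melanoma cells (1.30 ± 0.18 CPM, all with SD, n = 4 libraries). A gate of 16 T cells with Nkg7 and few or no CD4 and CD8 markers had 533.9 ± 274.5 CPM and is not ranked. Dendritic against CD4 T cells and CD4 T cells against macrophages were not tested, and the SDs of the last of these pairs overlap.

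Klrd1 stood at 103 and 184 CPM in dendritic cells of S1 and S2, against 236 and 138 CPM in those of S3 and S4. It was lower there than in CD8 T cells, with a log2 change of 1.90 ± 0.15 for CD8 T over dendritic cells (adjusted p = 4.68e-12 by edgeR) and of 2.10 ± 0.16 for NK over dendritic cells (adjusted p = 1.48e-11). Its level varied with the kind of dendritic cell. In type 2 cells, those whose Cd209a, Clec10a and Mgl2 counts exceeded the type 1 and migratory marker counts, Klrd1 stood at 243 and 397 CPM in S1 and S2, against 701 and 366 CPM in S3 and S4. Migratory cells (Fscn1, Ccr7, Ccl22, Cacnb3) had 74.6 and 137 CPM in S1 and S2, against 49.2 and 154 CPM in S3 and S4. Type 1 cells (Clec9a, Xcr1, Snx22) had 38.6 and 25.3 CPM in S1 and S2, against 6.51 and 2.56 CPM in S3 and S4. In every library type 2 cells were highest and type 1 cells lowest, a description over subsets split after the markers were seen. Klrk1 did not follow that order: it stood at 224 CPM in type 1 cells, 289 in type 2 cells and 218 in migratory cells, all libraries together.

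**Figure D3:**
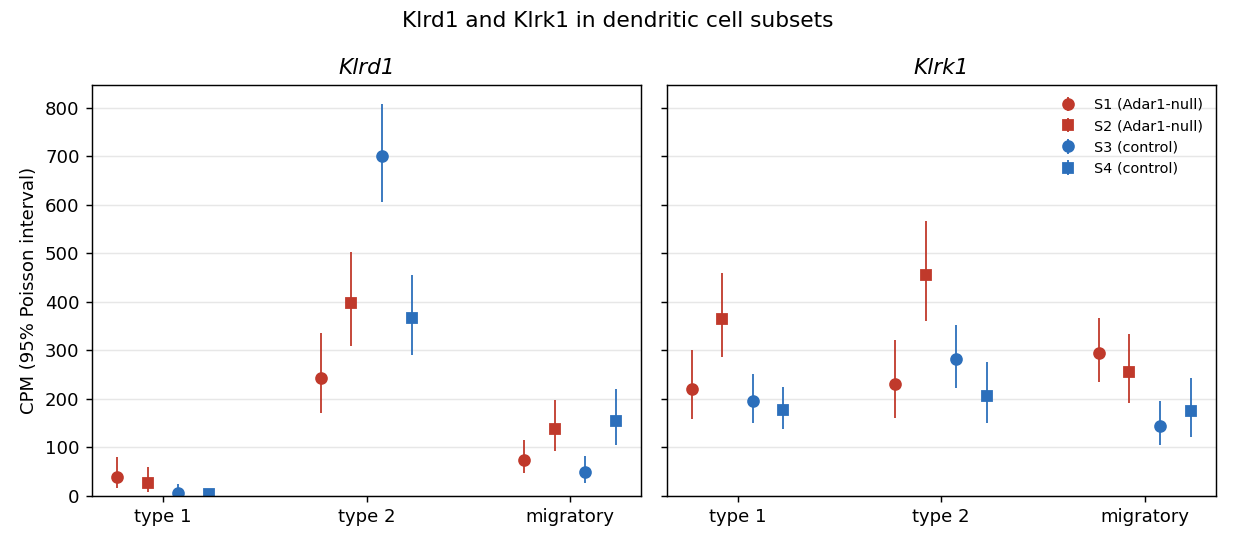
Klrd1 (left) and Klrk1 (right) in CPM per library in 3 subsets of gated dendritic cells. Each point is 1 library, red for Adar1-null and blue for control, with its 95% Poisson interval for counting error. Klrd1 was highest in type 2 cells of every library, and Klrk1 lay between 144 and 455 CPM in all subsets.

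Cytotoxic transcripts were scarce in the type 2 dendritic cells with Klrd1, and the chemokine Ccl5 was less so. Among 123 type 2 cells, 73 had Klrd1, up to 33 UMIs in a cell, and these 73 cells had 380 UMIs of Klrd1, 3 of Nkg7, 1 of Gzma and 2 of Gzmb. They also had 165 UMIs of Klrk1, 11 of Klre1 and 71 of Ccl5, which was seen in 27.4% of them, against 24.0% of the 50 type 2 cells without Klrd1. Ccl5 stood at 137 CPM in these 73 cells, against 2071 CPM in all dendritic cells, 218.5 CPM in macrophages and 51.3 CPM in melanoma cells. Nkg7, which is no part of the dendritic gate, had 1.58 UMIs per 100 UMIs of Klrd1 in type 2 cells. It had 445 per 100 in CD8 T cells, 311 per 100 in NK cells and 482 per 100 in melanoma cells. Where the Klrd1 transcripts of dendritic cells came from was not tested. The gate allowed at most 1 UMI of Cd3d, Cd3e and Cd3g together in a dendritic cell. Klre1 had 12 UMIs in the 123 type 2 cells. Klrc1, the NKG2A partner of Klrd1, had none there, which allows up to 4.49 CPM (upper 95% Poisson bound, counting error only). Of the adaptors, Tyrobp stood at 1416 to 1560 CPM in dendritic cells of the 4 libraries and Hcst at 11.1 to 31.1 CPM.

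Macrophages as a class had little of any receptor other than Klrk1. Klrk1 stood at 37.3 and 123 CPM in macrophages of S1 and S2, against 47.4 and 10.2 CPM in S3 and S4, so that S2 was highest and S4 lowest and the genotypes overlapped. The other 9 genes reached at most 7.82 CPM in any library. There were 7.15 UMIs of Klrk1 per UMI of Klrd1 in macrophages, against 0.62 in CD8 T cells, 0.78 in NK cells and 0.66 in melanoma cells. Macrophages with at least 3 UMIs of the monocyte markers Ly6c2 and Chil3 had 78.3 and 190 CPM of Klrk1 in S1 and S2, against 88.0 and 29.4 CPM in S3 and S4. Those below that and with at least 20 UMIs of C1qa and C1qb had 24.1 and 68.2 CPM in S1 and S2, against 33.7 and 6.28 CPM in S3 and S4. The 479 macrophages in neither part had 50.5 and 156 CPM of Klrk1 in S1 and S2, against 87.5 and 22.1 CPM in S3 and S4, and also 31.4 and 30.4 CPM of Klrd1 in S1 and S2, against 51.5 and 29.4 CPM in S3 and S4. Klrk1 was lowest in the C1q-high cells of each library, and S2 was highest and S4 lowest in all 3 parts. No test was run in macrophages.

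Between genotypes, 1 of the 10 receptor genes was past the threshold in NK cells: Klrg1 was lower in Adar1-null tumours. It had passed a filter on low counts only through the control libraries, where it was high. Its p is therefore no support for a difference. Its level was 37.4 and 18.9 CPM in NK cells of S1 and S2, against 142 and 134 CPM in those of S3 and S4, so that the groups did not overlap. This is a log2 change of -2.55 ± 0.57 (SE, adjusted p = 0.00466 by edgeR), in a comparison that called 0.351% of 1995 genes, 0.1% higher and 0.251% lower. The counts behind it are small: 3 and 4 UMIs in 3 of 10 and 2 of 32 cells of S1 and S2, against 36 and 10 UMIs in 10 of 34 and 4 of 11 cells of S3 and S4. The call held without S1 (adjusted p = 0.00931) and without S4 (adjusted p = 0.0116), and was lost without S2 (log2 change -1.95, adjusted p = 0.464), without S3 (-2.38, adjusted p = 0.950) and in DESeq2 (-2.48, adjusted p = 0.9996). Dendritic markers were higher in the NK gate of S1 and S2 as given above, Klrg1 itself was at 0 in dendritic cells, and the part of these markers in the result was not tested.

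The other 9 genes were not called in NK cells. Their log2 changes ran from -0.88 ± 0.36 for Klrb1c (adjusted p = 0.606 by edgeR) to 0.81 ± 0.54 for Klrc1 (adjusted p = 0.999). Klrb1c stood at 137 and 199 CPM in S1 and S2, against 283 and 348 CPM in S3 and S4. In all, 4 of the 10 genes (Klrd1, Klre1, Klrb1c and Klrg1) had both Adar1-null libraries below both control libraries and none the reverse, where 33.6% of the genes tested did not overlap between genotypes, 20.5% upward and 13.1% downward. Ncr1 was the closest to no change, with a log2 change of -0.09 ± 0.34. The median log2 change of the 10 was -0.49, against -0.01 over all genes tested.

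**Figure D4:**
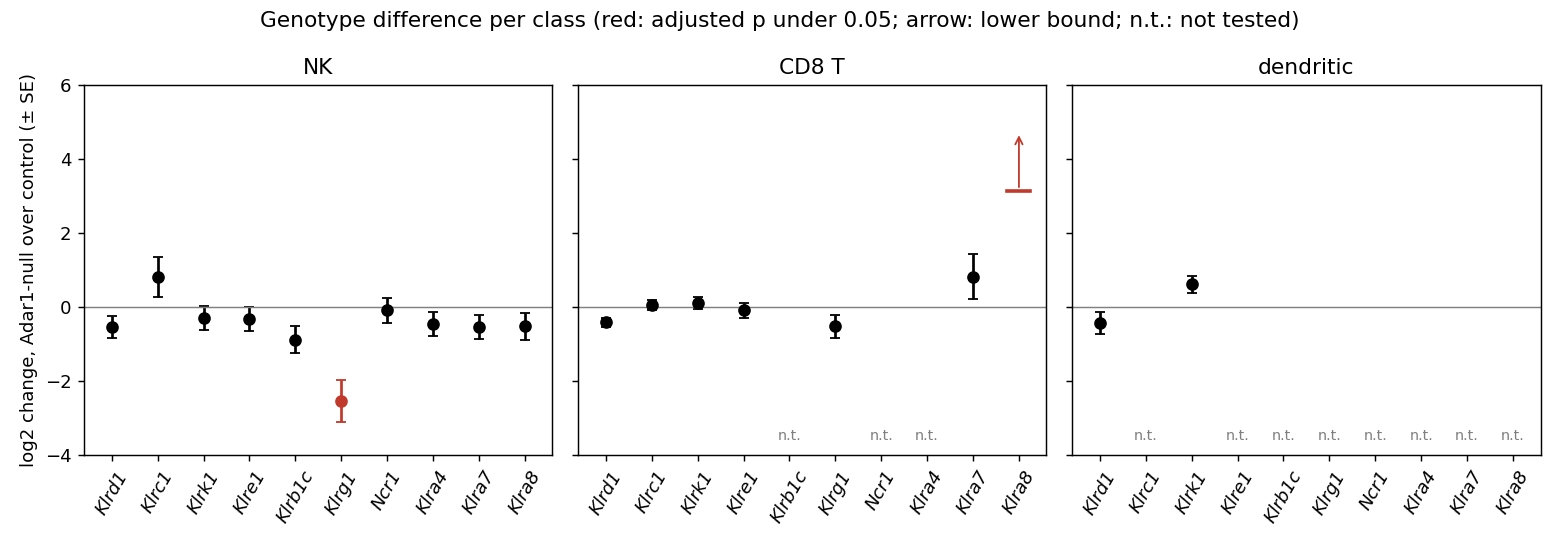
Log2 change of each receptor gene for Adar1-null over control tumours in gated NK, CD8 T and dendritic cells, with the standard error from edgeR (2 libraries per genotype). Red marks passed an adjusted p of 0.05 over all genes tested, and n.t. marks genes with too few counts to be tested. Klrg1 in NK cells (-2.55) passed, but it and Klra8 in CD8 T cells entered the test only through the group in which each was high. The arrow for Klra8 in CD8 T cells starts at its lower bound of 8.83-fold, since both control libraries had 0 UMIs.

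In CD8 T cells 7 of the 10 genes had enough counts to be tested, having passed a filter on low counts, and 0.202% of 8909 genes were called, 0.135% higher and 0.0673% lower. Of the 7, Klra8 was past the threshold, but it had passed the filter only through the group in which it was high, so its p is no support for a difference. It had 14 and 16 UMIs in S1 and S2, against none in S3 and S4, so that it was at least 8.83-fold higher with 3 counts over the control libraries as the limit. All 30 UMIs came from 4 of 584 cells, with 11, 2 and 1 UMIs in 3 cells of S1 and 16 in 1 cell of S2, against 0 of 472 control cells. The adjusted p was 0.0292 by edgeR, 0.123 by DESeq2, and between 0.106 and 0.405 with S1, S3 or S4 left out, while without S2 the gene was not tested. The 4 cells had 2 to 25 UMIs of Cd3g and 3 to 9 UMIs of Fcer1g, where 12.4% of the other 1052 CD8 T cells had 3 or more of Fcer1g. They also had 4 to 8 UMIs of Tyrobp, where 5.80% of the others had 3 or more, and 2 of the 4 had Ncr1, against 0.285% of the others. None of the 4 passed the stricter CD8 T gate, in which no cell had Klra8.

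**Figure D5:**
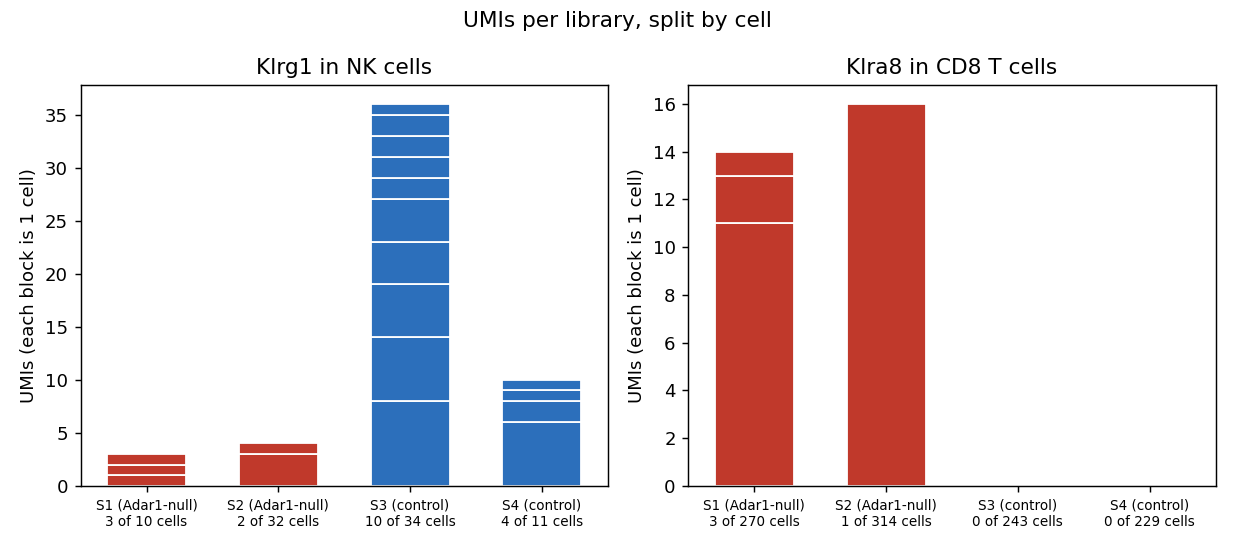
UMIs of Klrg1 in gated NK cells (left) and of Klra8 in gated CD8 T cells (right) per library, red for Adar1-null and blue for control. Each block of a bar is 1 cell, and the labels give cells with a UMI of all gated cells. Klra8 in CD8 T cells rested on 4 cells, and Klrg1 in NK cells on 5 Adar1-null and 14 control cells.

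Klrd1, the most widespread of the receptors in CD8 T cells, stood at 628 and 552 CPM in S1 and S2, against 810 and 715 CPM in S3 and S4. The groups did not overlap, where 36.3% of the genes tested did not, 22.3% upward and 14.0% downward, and the log2 change of -0.41 ± 0.12 did not pass the adjustment (adjusted p = 0.434 by edgeR). It was negative in each of 9 alternative settings, from -0.51 without S1 to -0.33 without S2. Klrk1, Klrc1 and Klre1 had log2 changes of 0.11 ± 0.16, 0.06 ± 0.14 and -0.09 ± 0.21, each of which changed sign when a library was left out. Klrg1 in CD8 T cells stood at 16.1 and 8.59 CPM in S1 and S2, against 14.5 and 19.0 CPM in S3 and S4, with a log2 change of -0.52 ± 0.31 (adjusted p = 0.874).

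In dendritic cells 2 of the 10 genes had enough counts to be tested and neither was called, nor was any of 5981 genes by edgeR (0%) or DESeq2, with 251 genes at an unadjusted p under 0.05 in edgeR. Klrk1 at 252 and 359 CPM in S1 and S2, against 202 and 184 CPM in S3 and S4, was higher in both Adar1-null libraries, where 30.4% of the genes tested did not overlap, 17.2% upward and 13.2% downward. Its log2 change was 0.61 ± 0.23 (adjusted p = 0.999 by edgeR). Klrd1 had a log2 change of -0.43 ± 0.30 (adjusted p = 0.999), with overlapping groups. With 1 library left out at a time, 10 (without S4) to 131 genes (without S3) were called in dendritic cells and 9 (without S4) to 123 (without S1) in CD8 T cells.

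Whether the genotype difference of a receptor itself differed between cell types was tested as an interaction. Of the 10 genes, Klra8 was called for NK less CD8 T cells, with an adjusted p of 0.0126 by edgeR, where 0.0305% of 6563 genes were called. Since CD8 T cells of S3 and S4 had no UMI of it, the fitted log2 difference is no estimate of size. In NK cells Klra8 stood at 237 and 180 CPM in S1 and S2, against 209 and 388 CPM in S3 and S4, and the CD8 T counts are those of the 4 cells described above. It was not called without S3 (adjusted p = 0.286), without S4 (0.917) or in DESeq2 (0.201), nor in the stricter gate, where no CD8 T cell had Klra8. Klrg1 had a log2 difference of -2.04 ± 0.68 (adjusted p = 0.728 by edgeR) and was not tested in the stricter gate. Its genotype difference in NK cells was thus not shown to differ from that in CD8 T cells. Klrk1 had a log2 difference of 0.48 ± 0.31 for dendritic less CD8 T cells (adjusted p = 1 by edgeR, with 0% of genes called). For NK less dendritic cells it was -0.99 ± 0.34 (adjusted p = 0.736), where 0.0305% of genes were called, 0.0152% higher and 0.0152% lower.

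Other receptors, adaptors and ligands were taken from lists of 32, 21 and 20 genes, of which 29, 21 and 17 are in the matrix. Between genotypes no gene of these lists was called in NK, CD8 T or dendritic cells. Crtam, a receptor of activated NK and CD8 T cells, came closest in NK cells, at 112 and 170 CPM in S1 and S2, against 43.3 and 26.8 CPM in S3 and S4, a log2 change of 1.84 ± 0.49 (adjusted p = 0.0543 by edgeR). Crtam entered that test only through the Adar1-null libraries, in which it was high. Its p is thus no support for a difference, and the levels are given as description. Klrb1b, an inhibitory receptor of the NKR-P1 group, stood at 74.7 and 137 CPM in NK cells of S1 and S2, against 236 and 228 CPM in S3 and S4, for a log2 change of -1.09 ± 0.39 (adjusted p = 0.381 by edgeR). Hcst, the DAP10 adaptor of NKG2D, stood at 178 and 144 CPM in CD8 T cells of S1 and S2, against 226 and 196 CPM in S3 and S4, for a log2 change of -0.44 ± 0.13 (adjusted p = 0.411 by edgeR).

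Between cell types many genes of the lists were called. Of 15 other receptors tested for NK over CD8 T cells, 10 were higher and 1 was lower, with a median log2 change of 1.88, where 3.49% of all genes were called higher and 3.03% lower with a median of -0.06. Klrb1f, Klra9 and Klri2 had the lowest p-values, with log2 changes of 6.37 ± 0.36, 6.53 ± 0.64 and 2.97 ± 0.29 (adjusted p = 2.82e-14, 2.99e-08 and 5.15e-08 by edgeR). Klrb1f and Klra9 had passed the filter on low counts only through NK cells, so their p-values are no support for a difference. The receptor that was lower in NK cells was Lag3, an inhibitory receptor of T cells, at -2.41 ± 0.29 (adjusted p = 5.67e-06). Of 20 adaptor and signalling genes 6 were higher and 4 lower in NK cells. Fcer1g, Tyrobp and Sh2d1b1 led the higher ones, with log2 changes of 3.73 ± 0.18, 4.72 ± 0.21 and 5.21 ± 0.52, and Lat and Lck were among the lower ones, at -3.92 ± 0.29 and -0.74 ± 0.17, all past the adjustment. Plcg1, also called lower, had 0 UMIs in NK cells, against 263 in CD8 T cells, so its fitted change is not given. Tyrobp serves Ly49D, Ly49H and NKG2D, while Lat and Lck act downstream of the T cell receptor. Of 10 ligand genes tested Clec2i, a ligand of NKR-P1 receptors, was higher in NK cells (2.50 ± 0.46, adjusted p = 0.000352) and none was lower.

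Of the 15 other receptors tested 6 were higher and 4 lower in CD8 T than in dendritic cells, where 53.7% of all genes were called, 25.7% higher and 27.9% lower and nothing particular to the receptors is read from the number called. Klrb1b was 1 of the 4, with 42 UMIs in all CD8 T cells, against 277 in all dendritic cells, for a log2 change of -4.71 ± 0.34 (adjusted p = 1.07e-08 by edgeR). In dendritic cells Klrb1b stood at 87.3 to 103 CPM across the 4 libraries. It had passed the filter on low counts only through dendritic and NK cells, so its p is no support for a difference. Of 10 ligand genes 7 were lower and 1 higher in the same comparison. H2-T23, picked after its values were seen because its product Qa-1 is read by CD94 with NKG2A or NKG2C, was 1 of the 7, with a log2 change of -0.68 ± 0.14 (adjusted p = 0.000129).

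Across 24 units of gated class by library, the genes whose log2(CPM + 10) followed Ncr1 most closely were Klra9, Klrb1f, Khdc1a, Gzma and Samd3, with Pearson's r between 0.956 and 0.983. Those closest to Klrc1 were Nrgn, Cd96, Fasl, Cd160 and Il18r1 (0.926 to 0.965), those closest to Klrk1 were Eif3m, Nr4a2, Serpinb9, Runx3 and Dusp5 (0.917 to 0.940), and those closest to Klrd1 were Adora2a, Acot7, Bhlhe40, Impdh2 and Supt4a (0.944 to 0.949). The units share 4 libraries and differ in depth, and Gzma was a marker of the NK gate, so these values describe likeness only.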

How the data were processed

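The authors deposited unnormalized UMI counts in 1 matrix of 8838 barcodes by 27998 genes. Cell Ranger, Seurat 2.2.0 and build mm10 were used, per the submitters' processing notes, while its cell filters and annotation were not given in the sources used. Barcode names show the group of a library and no replicate number.

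Cells with at least 500 genes, at most 10% mitochondrial UMIs and a Scrublet score of at most 0.1 (scanpy 1.11.5) were kept, 8569 in all. Library totals ran from 23382804 to 32672771 UMIs. The NK, CD8 T and dendritic gates required at least 3 UMIs of each class's markers (Cd3d, Cd3e and Cd3g for T cells, with Cd8a and Cd8b1 for CD8 T cells). They allowed few UMIs of macrophage, melanoma and B cell markers. NK and dendritic cells were also limited in T cell markers, and dendritic cells needed at least 30 UMIs of H2-Ab1, H2-Aa and Cd74 together. No limit on dendritic markers was set in the NK and CD8 T gates. Thresholds were set after the marker distributions were seen, and the exclusion of B cells after the first sums. UMIs summed per library and gate were tested with edgeR 4.0.16 (TMM scaling, filterByExpr, robust quasi-likelihood fit, Benjamini-Hochberg adjustment over all genes tested), checked on simulated counts; adjusted p-values are from edgeR unless DESeq2 1.42.0 is named. Genotypes were compared within a gate, and cell types with the library as a block. The members, gene lists and tests were chosen with earlier results of these data known. Of the lists, the genes with the lowest p in each direction are named (up to 3), and Klrc2, Klrb1b in dendritic cells and H2-T23 were picked after their values were seen. The 5 genes most alike to a member by correlation are named without a p.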

Additional observations from a re-analysis of the deposited data

Results flagged for a closer look

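Klra8 is listed here because its Adar1-null over control difference was itself tested between NK and CD8 T cells and was called, with a log2 difference of -6.25 ± 1.08 (adjusted p = 0.0126 by edgeR). The fitted value is no estimate of size, since CD8 T cells of both control libraries had 0 UMIs. The call was lost without S3 (adjusted p = 0.286), without S4 (0.917), in DESeq2 (0.201) and in the stricter gate, where no CD8 T cell had Klra8. In CD8 T cells it had 14 and 16 UMIs in S1 and S2, against 0 in both S3 and S4, all in 4 cells. In NK cells, not thinned, it was seen in 2 of 10 and 7 of 32 cells of S1 and S2, against 16 of 34 and 4 of 11 cells of S3 and S4. These held 19 and 38 UMIs, against 53 and 29 UMIs. The NK levels in CPM overlapped between genotypes, as given above.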

How the results depend on the processing

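No paired analysis was possible because the barcode names carry no replicate number that could tie libraries across genotypes. Of 166 genotype values of the 10 genes under alternative settings, 151 kept direction and call, 7 lost a call and 8 changed sign. Of 267 cell type values, 259 kept both, 4 lost and 1 gained a call and 3 changed sign. Of 35 interaction values 31 kept both and 4 lost a call. Counts of genes called between genotypes in NK cells (7) were 4 by DESeq2, 2 in the stricter gate and 7 to 18 with 1 library left out. In CD8 T cells (18) they were 149 with no filter on low counts, 2 in the stricter gate and 9 to 123 with 1 library left out, and in dendritic cells (0) 23 with no filter and 10 to 131. NK over CD8 T cells (428) gave 690 with no filter and 270 to 492 with 1 library left out, and CD8 T over dendritic cells (3523) gave 2192 in the stricter gate. The interaction of NK less CD8 T cells (2) gave 0 by DESeq2, 12 with no filter, 1 in the stricter gate, 1 with no B cell exclusion, an alternative added after the data were seen, and 0 to 9 with 1 library left out. With 1 library left out, genotype changes that turned sign ranged in NK cells from -1.03 to 0.076 for Klrk1, -0.74 to 0.051 for Klra4 and -0.97 to 0.34 for Klra7. In CD8 T cells they ranged from -0.10 to 0.20 for Klrc1, -0.11 to 0.37 for Klrk1 and -0.39 to 0.28 for Klre1. For CD8 T over dendritic cells they ranged from -0.19 to 1.26 for Ncr1 and -0.25 to 4.36 for Klra4, and Klra8 gave -2.72 in the stricter gate, where no CD8 T cell had it. No value that turned sign was past the threshold, and the cause was not tested. A lone library of a genotype is assumed to vary like the others. NK gates of 10 and 11 cells limit the depth of S1 and S4.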

Other observations

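Cells of the CD4 T gate, which enter no test, held more of some receptors than CD8 T cells. Only 48.4% of them had a UMI of Cd4, and their dendritic markers summed to 7034 CPM, against 694 CPM in CD8 T cells. The part of these markers in the values below was not tested. Klra7 stood at 43.1 and 102 CPM in CD4 T cells of S1 and S2, against 40.5 and 0 CPM in those of S3 and S4, on 60 UMIs in all. Klrg1 was seen in 22.9% of the 153 CD4 T cells at 3900 UMIs per cell, against 4.64% of CD8 T cells. Klra8 had 0 UMIs in CD4 T cells. The gate of T cells with Nkg7, no Cd4 or Foxp3 and at most 1 UMI of Cd8a and Cd8b1 together held 16 cells. All libraries together, these had 324 CPM of Klra7, 162 CPM of Ncr1 and 121.5 CPM of Klrb1c. No test was run on these values.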
